A study of Sus scrofa with 37 samples.

Results

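Pancreatic delta cells of the pig were compared between postnatal day 22 (P22, 3 libraries) and embryonic day 90 (E90, 2 libraries). These 5 libraries are all the delta cell libraries among the 37 of the series, whose other libraries are 18 of beta cells and 14 of alpha cells. The labels give each library a cell type, an age and the pancreas as tissue, and all cells were purified by FACS (fluorescence-activated cell sorting). No genotype, treatment, strain or sex is given for any group, and no source used here names the sorting gate. The labels do not say whether replicates came from separate animals, so the spread behind the p-values may be technical. That spread was taken over all 37 libraries, most of them of beta and alpha cells. Replicates are numbered in the order of the records, and the numbers pair nothing across ages.

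Delta cells are the islet cells that secrete somatostatin, a short peptide that acts on neighbouring beta and alpha cells through somatostatin receptors and restrains the release of insulin and glucagon. They are electrically excitable, respond to glucose, to ghrelin and to signals from nearby islet cells, and are joined to beta cells by gap junctions. Between late fetal life and the fourth week after birth the pig islet passes from a steady supply of nutrients across the placenta to milk feeding.

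The transcript levels were TPM (the transcript abundance unit that corrects for gene length and scales each library to 1 fixed total), so each library sums to 1000000 and each value is a share of that library. SST, the somatostatin gene, was at 32467 and 27713 TPM in the E90 libraries and at 17408, 35765 and 18111 TPM in the P22 libraries. The ages overlapped, and no beta or alpha library of the same ages was above 90.66 TPM. The log2 difference of SST between the ages was -0.42 ± 1.24 (standard error), and it was not called (adjusted p = 0.899). HHEX, a homeobox factor needed for delta cell identity, was at 81.1 and 55.9 TPM at E90 and at 25.4, 57.1 and 24.9 TPM at P22, against at most 3.55 TPM in beta and 0.695 TPM in alpha libraries. The symbol HHEX has 2 identifiers in the table and the more abundant one was used. RBP4, CASR, GHSR and LEPR, genes that mark delta cells in other mammals, were found in all 5 libraries. RBP4 (a retinol carrier) was at 497.6 to 604 TPM at E90 and 258 to 494 TPM at P22, and CASR (the calcium-sensing receptor) at 265 to 346 and 198 to 321 TPM. GHSR (the ghrelin receptor) was at 11.0 to 14.1 and 13.6 to 16.4 TPM, and LEPR (the leptin receptor) at 17.8 to 45.4 and 15.8 to 41.9 TPM. None of the 4 was called different between the ages. RBP4 and CASR were higher in every delta library than in any beta or alpha library of these ages, which reached at most 31.4 and 63.2 TPM. GHSR was not, with 77.95 to 81.1 TPM in beta libraries at E90 and 15.4 to 19.9 TPM at P22. LEPR was not either, with up to 36.6 TPM in alpha libraries at P22, so these 2 genes do not set delta cells apart here. PRG4, another marker on the list, was listed at 0 in all 5 libraries, and BCHE was listed at 0 in 4 of them.

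The delta libraries also held transcripts that mark other cell types, and these amounts differed between the ages. The 12 beta cell markers summed to 27253 and 21386 TPM at E90 and to 4757, 5746 and 1476 TPM at P22. The 12 alpha cell markers summed to 3435 and 4026 TPM at E90 and to 1020, 1135 and 1043 TPM at P22. Most of the beta sum was the insulin gene INS, at 26057 and 20365 TPM at E90 and 4146, 5156 and 1004 TPM at P22. In the alpha sum the glucagon gene GCG was at 2222 and 3016 TPM at E90 and 33.6, 53.6 and 31.9 TPM at P22. The falls of both sums were thus mostly falls of these hormone genes. The 23 markers of acinar cells, which make the digestive enzymes of the pancreas, went the other way, with 1627 and 1552 TPM at E90 and 9024, 55673 and 15160 TPM at P22. P22 replicate 2 therefore stood apart, with 5.57% of its TPM in acinar transcripts. Immune cell markers summed to 78.5 and 88.5 TPM at E90 and to 188, 90.2 and 189 TPM at P22. The 5 Y-linked genes summed to 348.5 and 411.6 TPM at E90 and to 30.7, 16.02 and 20.2 TPM at P22, so that the ages did not overlap. Sex is not in the labels, and in the delta libraries a difference of sex and a difference of age cannot be told apart. Whether these transcripts came from other cells or from the sorted delta cells themselves was not tested. In all of these lists a smaller number of cells and less RNA per cell cannot be told apart. The part that admixed cells played in the changes below was not tested.

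**Figure D1:**
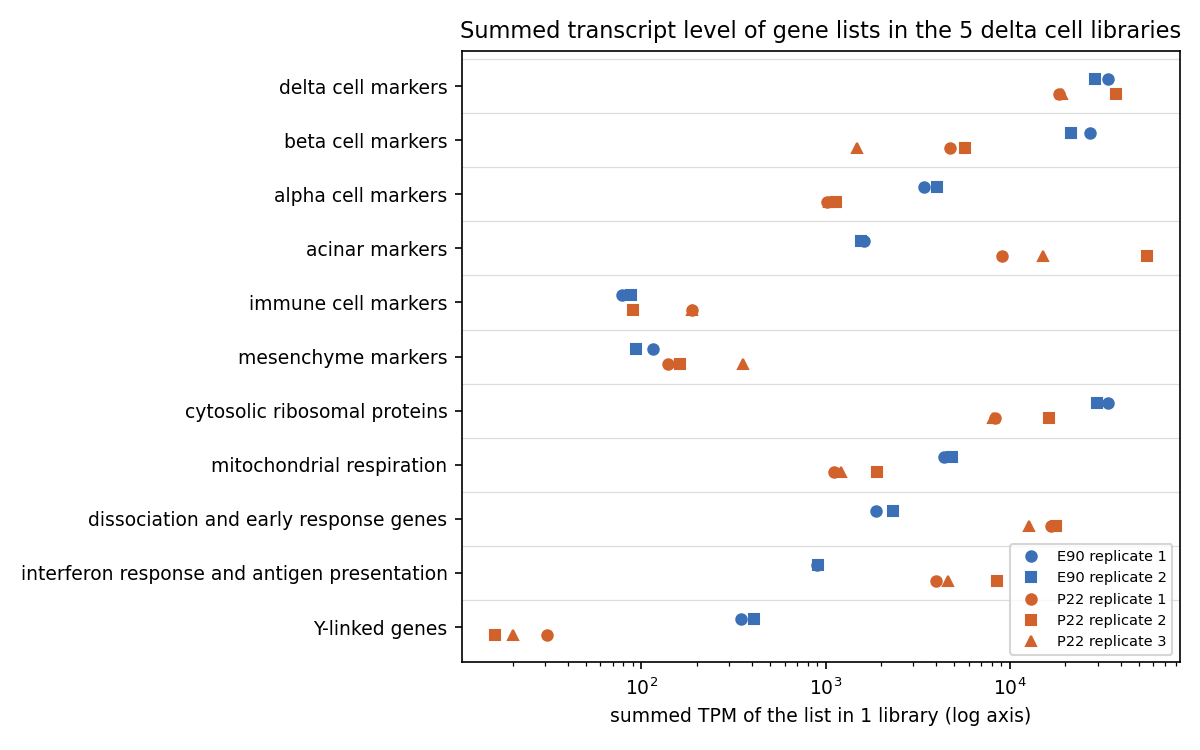
Summed TPM of 11 gene lists (rows, log axis) in each of the 5 delta cell libraries, with E90 in blue and P22 in orange and 1 symbol per replicate. The beta, alpha, ribosomal, mitochondrial and Y-linked sums were higher in both E90 libraries than in any P22 library, the acinar, mesenchyme, immune, early response and interferon sums were higher in the 3 P22 libraries, and the delta cell sums overlapped.

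A pair of unnamed genes took a much larger share of the P22 libraries, which leaves less of the fixed total for all other genes. The identifiers ENSSSCG00000032599.1 and ENSSSCG00000032395.1, which have no symbol, together held 2.41% and 1.46% of the TPM at E90 and 19.3%, 19.8% and 16.1% at P22. In beta cells their sum was 5.40% to 5.60% at E90 and 7.52% to 16.15% at P22. In alpha cells it was 7.67% to 8.76% at E90 and 19.6% to 22.7% at P22. Between 12330 and 14510 genes reached 1 TPM in the 5 libraries, between 31.52% and 38.71% of the listed genes were at 0, and mitochondrially encoded genes held 7.93% to 12.8%. The depth of the libraries is unknown, because TPM keeps no read count.

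Of 17839 genes tested, 2304 were higher at P22 (12.9%) and 2381 lower (13.3%) at an adjusted p below 0.05. These 2 shares are the background for the counts called in each list below. The test was limma on log2(TPM + 1) with 1 spread shared by all 37 libraries, and each difference below is P22 minus E90 on that scale, with its standard error. The delta groups varied more than the spread used to test them, so the adjusted p-values below are likely too small for delta cells. The root mean variance on the log2 scale was 0.919 in the E90 and 0.985 in the P22 delta group and 0.619 over the beta and alpha groups. A called gene was therefore said to hold in every library when its nearest P22 and E90 libraries were at least 1 log2 unit apart and when it stayed called after leaving out each delta library in turn. This left 429 genes that held higher (2.4%) and 495 that held lower (2.77%). Of the 429, 89 were listed at 0 in both E90 libraries, and of the 495, 21 were listed at 0 in all P22 libraries. Holding does not guard against a listed 0 that is not a true absence. Leaving out an E90 library leaves 1 in that group, so those fits take their spread from the other groups. Holding therefore does not make up for the larger spread of the delta groups. The 2 ages did not overlap for 2786 genes that were higher in all P22 libraries (15.6%) and for 2855 that were lower (16%). With 3 against 2 libraries, a share of up to 0.2 of genes would separate without any change, both directions together. Groups that do not overlap are therefore weak evidence by themselves. Of the 4685 called genes, 745 had overlapping groups.

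The 924 genes that held were then followed through the alternatives. With a weight for each library, 673 of them stayed called, while the calls over all genes dropped to 466 higher and 887 lower. With the 2 unnamed genes removed and the rest rescaled, 922 stayed called, but the median of all differences moved from 0.02 to 0.22 and the calls moved from 49.18% to 65.43% higher. With the level of Y-linked genes as a covariate 922 stayed called, and with the level of acinar markers as a covariate all 924 did. Both levels were apart between the ages in the delta libraries, so neither covariate can be told apart from age there. Fitted on the 5 delta libraries alone, only 1 gene was called higher and 4 lower, and 2667 had an unadjusted p below 0.05, among them 883 of the 924. The 924 had been chosen for a call and a gap in these same libraries. Neither the 883 nor the numbers that stayed called are therefore independent support. Named after their values were seen, the 5 genes called in the delta libraries alone were EGR1, NDUFA3, TMEM200A, ASB18 and RPL36A-HNRNPH2. EGR1, an early response transcription factor, was at 42.4 and 53.2 TPM at E90 and at 982, 1055 and 967 TPM at P22. NDUFA3, a subunit of respiratory complex I whose symbol is shared by 3 identifiers, was at 262.5 and 239 TPM at E90 and at 20.7, 21.9 and 22.4 TPM at P22. TMEM200A was listed at 0 in all P22 libraries and was at 4.44 and 4.29 TPM at E90. ASB18 and RPL36A-HNRNPH2 were listed at 0 at P22 as well, from 1.66 and 1.64 TPM and from 1.05 and 1.07 TPM. Both were thus near 1 TPM, the level a gene had to reach in at least 2 libraries to be tested. Of the 5 genes, 3 were among the 924 that held.

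**Figure D2:**
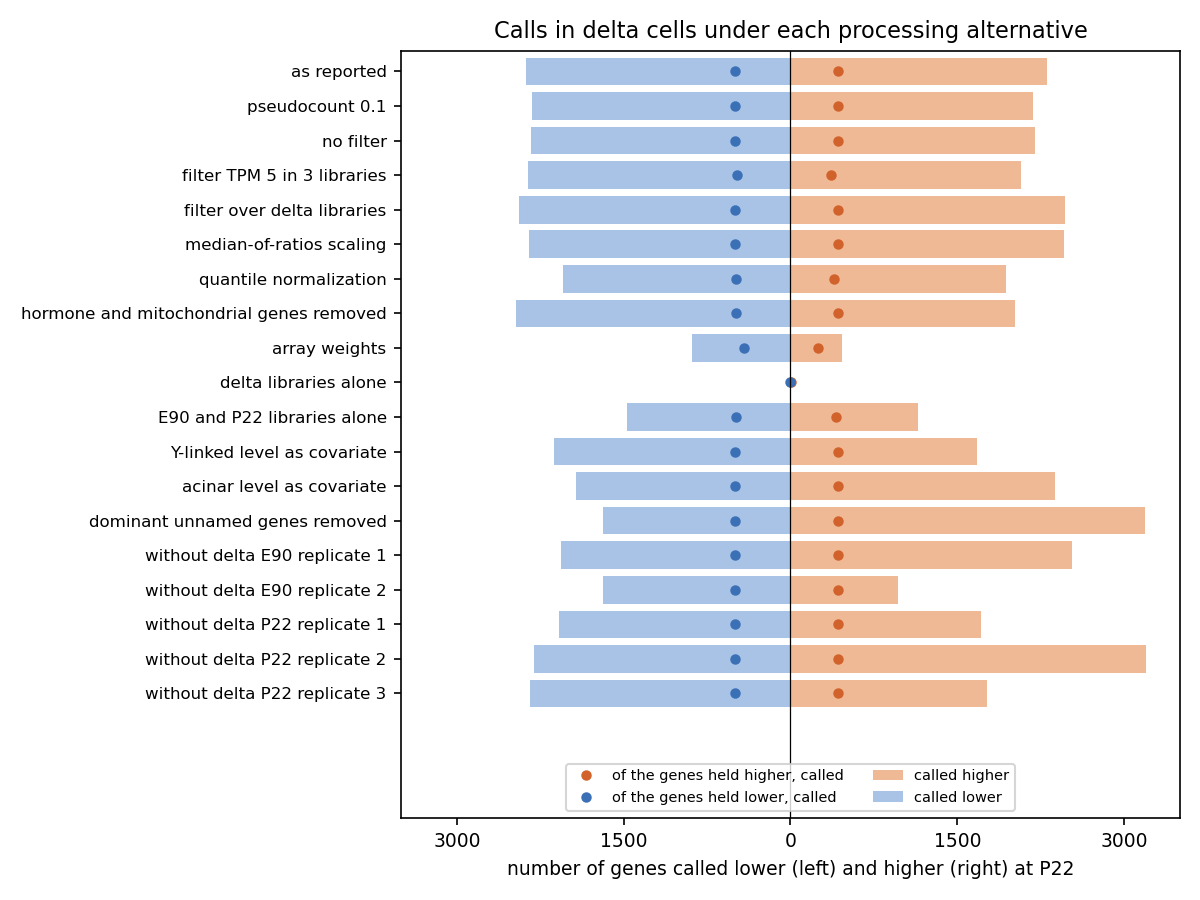
Number of genes called higher (right, orange) and lower (left, blue) at P22 in delta cells as reported and under each processing alternative (rows), with dots for how many of the 429 and 495 genes that held were still called. The bars run from 2304 and 2381 as reported to 1 and 4 in the delta libraries alone. The dots stay near 429 and 495 in all rows but the library weights and the delta libraries alone. In the rows without 1 delta library the dots cannot move, because holding required a call in those fits.

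Of 12 beta cell markers, 5 were called lower at P22 and none higher (13.3% and 12.9% over all genes). Of 12 alpha cell markers, 4 were called lower and FAP higher (1.66 ± 0.44, adjusted p = 0.0060, or 0.15 without E90 replicate 1), and 7 of each list were not called. FAP, a surface protease, is also on the list of mesenchyme markers. GCG, the glucagon gene, was at 2222 and 3016 TPM at E90 and at 33.6, 53.6 and 31.9 TPM at P22. It fell by 6.03 ± 1.29 (adjusted p = 9.1e-04) and held in every library, although with a weight for each library its adjusted p was 0.079. INS, the insulin gene, was at 26057 and 20365 TPM at E90 and at 4146, 5156 and 1004 TPM at P22. Its difference was -3.05 ± 0.95 (adjusted p = 0.017), the ages did not overlap, and it did not hold: the adjusted p was 0.083 without E90 replicate 1, 0.073 without E90 replicate 2, 0.094 without P22 replicate 3, 0.17 with library weights and 0.11 with the Y-linked covariate. PPY, the pancreatic polypeptide gene, was at 437.5 and 649.5 TPM at E90 and at 6.68, 112.9 and 0 TPM at P22. Its difference of -5.80 ± 1.91 (adjusted p = 0.024) was lost without E90 replicate 1 (0.067), E90 replicate 2 (0.13), P22 replicate 1 (0.056) or P22 replicate 3 (0.13), with library weights (0.19) and with the Y-linked covariate (0.055). For comparison, INS and GCG were not called between these ages in beta or alpha cells (adjusted p 0.88 to 1.0), and the fall of GCG in delta cells was larger than the mean change there (adjusted p = 0.027). IAPP and GHRL, the genes of amylin and ghrelin, were listed at 0 in all 5 delta libraries.

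Of 43 islet transcription factors tested, 8 were called lower and 3 higher (13.3% and 12.9% over all genes). The median difference was -0.35 against 0.02 over all genes, and 2 factors held, ETV1 among them. With quantile normalization 5 were called lower and 6 higher, so no direction is given for the list. ETV1, an ETS factor, was at 411.5 and 373.8 TPM at E90 and at 140.5, 185 and 144 TPM at P22, a fall of 1.33 ± 0.36 (adjusted p = 0.0071). Its call was lost with quantile normalization (0.064) and with library weights (0.17). NKX2-2, a factor of several endocrine cell types, was at 26.5 and 25.8 TPM at E90 and at 5.74, 13.1 and 7.57 TPM at P22, and fell by 1.54 ± 0.26 (adjusted p = 6.1e-05). It stayed called without any 1 delta library and missed the gap of 1 log2 unit. The beta cell factor NKX6-1 was at 21.8 and 23.9 TPM at E90 and at 14.2, 5.99 and 3.72 TPM at P22, and fell by 1.58 ± 0.40 (adjusted p = 0.0043, or 0.077 with library weights).

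RFX6, needed for islet cell formation, was among the 3 factors called higher. It was at 347.8 and 299.9 TPM at E90 and at 599.6, 369.5 and 633 TPM at P22, a difference of 0.68 ± 0.23 (adjusted p = 0.024). The call was lost without E90 replicate 2 (0.19), P22 replicate 1 (0.091) or P22 replicate 3 (0.11), with library weights (0.195) and with the Y-linked covariate (0.11), and P22 replicate 2 lay close to the E90 libraries. GATA4, a zinc finger factor of early pancreas, was at 7.42 and 4.40 TPM at E90 and at 25.6, 16.3 and 20.9 TPM at P22, and its call (1.68 ± 0.47, adjusted p = 0.009) was lost without E90 replicate 2 (0.13) and with library weights (0.21).

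Few markers of delta cells were called, while over all genes 12.9% were called higher and 13.3% lower. Of 18 tested, UNC5B was called higher, SEC11C lower and none held, and the median difference was -0.11. UNC5B, a netrin receptor, was at 33.3 and 10.9 TPM at E90 and at 49.3, 98.7 and 60.0 TPM at P22 (1.74 ± 0.35, adjusted p = 4.1e-04), and its call was lost without E90 replicate 2 (0.079) and with library weights (0.054). SEC11C, a subunit of the signal peptidase, was at 163 and 123 TPM at E90 and at 51.7, 120.0 and 27.8 TPM at P22 (-1.33 ± 0.38, adjusted p = 0.010). Its call was lost without E90 replicate 1 (0.088) or P22 replicate 3 (0.092), and P22 replicate 2 was nearly level with E90 replicate 2. The sum of the 18 markers was 34137 and 28963 TPM at E90 and 18601, 37508 and 19274 TPM at P22, most of it SST.

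Of 39 tested receptors and other inputs of delta cells, 8 were called higher and 2 lower (12.9% and 13.3% over all genes). The other 29 were not called, and the median was 0.26. The list's sum overlapped between the ages. GALR1, the receptor for the neuropeptide galanin, was at 0.026 and 0.055 TPM at E90 and at 1.55, 23.3 and 15.97 TPM at P22. It rose by 3.29 ± 0.59 (adjusted p = 1.3e-04) and was the 1 receptor that held. All 3 P22 libraries were above both E90 libraries, and P22 replicate 1 was the lowest of them. VIPR2, a receptor for vasoactive intestinal peptide, was at 3.67 and 0.598 TPM at E90 and at 7.89, 9.34 and 13.5 TPM at P22 (2.01 ± 0.41, adjusted p = 5.9e-04), and its call was lost without E90 replicate 2 (0.072). ADRB1, the beta-1 adrenergic receptor gene, was listed at 0 in both E90 libraries and was at 0.625, 9.38 and 1.47 TPM at P22. P2RY1, a purinergic receptor for ADP, was at 5.71 and 14.0 TPM at E90 and at 0.18, 0 and 1.01 TPM at P22 (-2.91 ± 0.66, adjusted p = 0.0015, or 0.055 without E90 replicate 2 and 0.11 with library weights). The list had 4 genes called higher and 3 lower without P22 replicate 1, the same numbers without P22 replicate 3, 5 and 1 without E90 replicate 2, and 3 and 0 with library weights.

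Of 36 tested ion channels of excitation, 9 were called higher and 2 lower (12.9% and 13.3% over all genes). The other 25 were not called, and the median was 0.61. The list's sum overlapped between the ages, and 1 channel in each direction held (2.4% and 2.77% over all genes). KCNJ6, a subunit of the potassium channels that G proteins open, was at 23.6 and 17.3 TPM at E90 and at 100.9, 66.6 and 124 TPM at P22. It rose by 2.16 ± 0.44 (adjusted p = 5.3e-04, or 0.065 with library weights), and the groups did not overlap. CACNA1C, the pore of an L-type calcium channel, was at 16.3 and 11.0 TPM at E90 and at 76.9, 26.8 and 43.2 TPM at P22 (1.67 ± 0.33, adjusted p = 3.5e-04). GJD2, which encodes connexin 36, the gap junction protein that couples islet cells, was at 91.8 and 62.2 TPM at E90 and at 12.8, 28.8 and 11.2 TPM at P22. It fell by 2.16 ± 0.34 (adjusted p = 2.5e-05), held in every library, and fell more than in beta and alpha cells (difference -1.48 ± 0.42, adjusted p = 0.029). In beta cells the mean of GJD2 was 112.9 TPM at E90 and 56.1 TPM at P22. Whether admixed beta cells had a part in its fall in the delta libraries was not tested. The list had 2 channels called higher and 1 lower without E90 replicate 2, 5 and 3 without P22 replicate 3, 6 and 2 without P22 replicate 1, and 1 and 1 with library weights.

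Of 38 tested genes of hormone storage and release, 11 were called lower and 1 higher (13.3% and 12.9% over all genes). The median was -0.34, and 26 were not called. The list's sum overlapped between the ages, and 4 genes held, all lower. With the 2 unnamed genes removed the counts were 6 lower and 4 higher with a median of -0.08, and with quantile normalization 6 and 6, so no direction is given for the list. It had 7 genes called lower without E90 replicate 1 or P22 replicate 1, and 5 with library weights. The 4 that held are general parts of the secretory pathway. SCG2, the granule protein secretogranin 2, was at 1411 and 842 TPM at E90 and at 178, 341 and 176 TPM at P22, and fell by 2.30 ± 0.35 (adjusted p = 1.6e-05). CPE, which trims the ends of prohormone fragments, was at 1237 and 942 TPM at E90 and at 299, 408 and 317 TPM at P22, and fell by 1.67 ± 0.24 (adjusted p = 1e-05). SYT4, a synaptotagmin of secretory vesicles, was at 160 and 111 TPM at E90 and at 27.9, 49.8 and 39.0 TPM at P22, and fell by 1.79 ± 0.30 (adjusted p = 5.7e-05). VAMP3, a vesicle fusion protein, was at 545.7 and 852 TPM at E90 and at 86.9, 157 and 64.8 TPM at P22, and fell by 2.81 ± 0.40 (adjusted p = 6.4e-06). In all 4 the fall was larger than the mean change in beta and alpha cells.

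**Figure D3:**
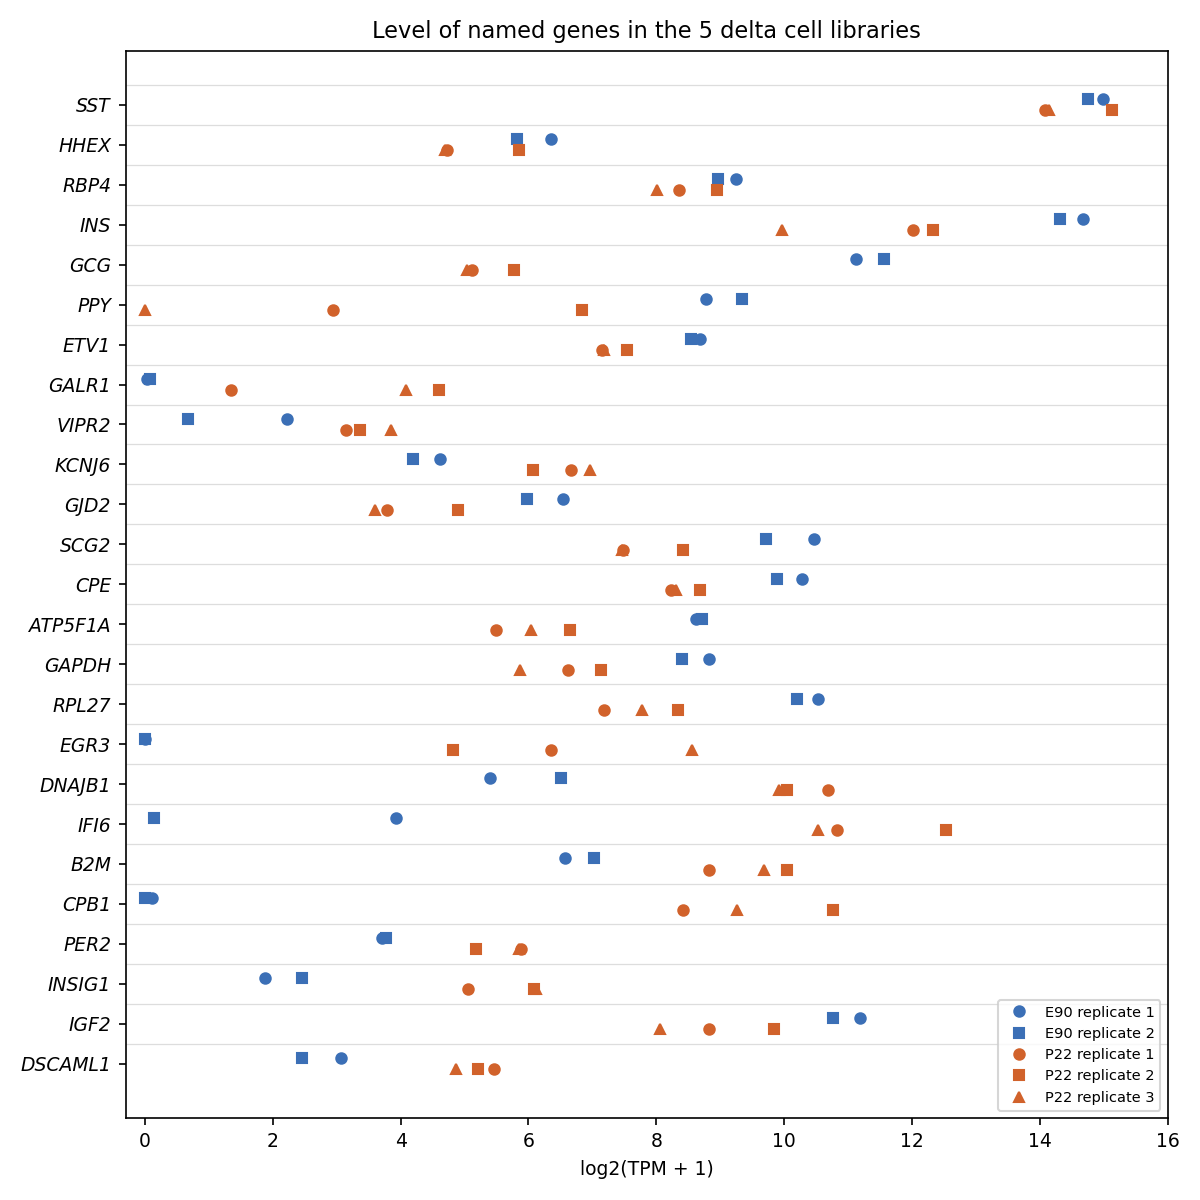
Level of 25 named genes as log2(TPM + 1) in each delta cell library, E90 in blue and P22 in orange, with 1 symbol per replicate. The ages overlap for SST and HHEX and touch for RBP4, and are apart for the other genes, with the widest gaps for CPB1, IFI6 and GCG.

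Genes of energy metabolism were lower at P22. Of 35 nuclear genes of mitochondrial respiration, 24 were called lower and none higher, with a median of -1.52, and 8 held. ATP5F1A, a subunit of the ATP synthase, was at 393 and 419 TPM at E90 and at 44.0, 99.0 and 65.2 TPM at P22, and fell by 2.61 ± 0.24 (adjusted p = 1.6e-08). COX8A, a subunit of cytochrome oxidase, was at 263 and 261 TPM at E90 and at 32.4, 51.8 and 39.9 TPM at P22, and fell by 2.66 ± 0.29 (adjusted p = 1.7e-07). CS, citrate synthase, whose symbol has 2 identifiers, was at 66.4 and 66.9 TPM at E90 and at 16.1, 22.4 and 15.8 TPM at P22, and fell by 1.84 ± 0.20 (adjusted p = 1.9e-07). The E90 replicates of these 3 genes lay close together and all P22 libraries were below them. Under the other scalings and the covariates between 20 and 25 of the 35 were called lower and none higher, and with library weights 15. The list's sum was 4418 and 4834 TPM at E90 and 1117, 1903 and 1212 TPM at P22, while the mitochondrially encoded share overlapped between the ages.

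Glycolysis went the same way in fewer genes. Of 24 tested, 9 were called lower and none higher (13.3% and 12.9% over all genes), with a median of -0.68. GAPDH was at 454 and 339 TPM at E90 and at 97.5, 140.1 and 57.7 TPM at P22, and fell by 2.07 ± 0.20 (adjusted p = 3.5e-08). PGAM1, phosphoglycerate mutase, was at 136 and 109.9 TPM at E90 and at 6.53, 44.5 and 35.2 TPM at P22, and fell by 2.41 ± 0.41 (adjusted p = 8.3e-05). Both held in every library and both fell more than in beta and alpha cells. G6PC2, which removes phosphate from glucose 6-phosphate, was named as a beta cell marker and is not read here as part of glycolysis. It was at 110.1 and 80.1 TPM at E90 and at 32.8, 9.86 and 6.19 TPM at P22. It fell by 2.78 ± 0.65 (adjusted p = 0.0021, or 0.09 with library weights). In beta cells its mean was 690 TPM at E90 and 363 TPM at P22. Whether admixed beta cells had a part in its fall in the delta libraries was not tested.

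Transcripts of the protein synthesis machinery took a smaller share of the P22 libraries. Of 43 cytosolic ribosomal protein genes, 36 were called lower and 1 higher, with a median of -1.40, and 10 held lower. The gene called higher, RPL13, also held in every library. It was listed at 0 at E90, as were some other genes that every cell uses, so its listed 0 may not be a true absence. RPL27 was at 1472 and 1174 TPM at E90 and at 143.5, 322 and 219 TPM at P22, and fell by 2.60 ± 0.30 (adjusted p = 3.9e-07). RPL37 was at 1161 and 1775 TPM at E90 and at 225, 328 and 185 TPM at P22, and fell by 2.58 ± 0.32 (adjusted p = 1.4e-06). For both genes the highest P22 library was P22 replicate 2, and it was still more than 1 log2 unit below the lower E90 library. Quantile normalization left 25 of the 43 called lower and library weights 20. Of 23 translation factors, 14 were called lower and none higher, and 7 were called lower with quantile normalization. EIF3L, a subunit of an initiation factor, was at 123 and 144 TPM at E90 and at 34.5, 37.9 and 53.8 TPM at P22, and fell by 1.66 ± 0.20 (adjusted p = 6.5e-07). NPM1, nucleophosmin of the nucleolus, was at 326.8 and 326.9 TPM at E90 and at 119, 139 and 134 TPM at P22, and fell by 1.32 ± 0.19 (adjusted p = 9.1e-06).

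The largest falls that held, by the rule for named genes, included those that follow. MTLN, a micropeptide of the inner mitochondrial membrane, was at 116.7 and 70.8 TPM at E90 and at 0, 0 and 2.89 TPM at P22, and fell by 5.87 ± 0.50 (adjusted p = 5.2e-09). ROMO1, a small mitochondrial membrane protein, was at 410.5 and 783 TPM at E90 and at 16.4, 76.1 and 1.18 TPM at P22, and fell by 5.31 ± 0.75 (adjusted p = 6.4e-06). Within P22, replicate 2 of ROMO1 was the highest and replicate 3 the lowest. ATP6V1F, a subunit of the proton pump that acidifies secretory granules and lysosomes, was at 598 and 603 TPM at E90 and at 0, 90.3 and 18.0 TPM at P22, and fell by 5.65 ± 0.87 (adjusted p = 2e-05). NBDY, a micropeptide of the mRNA decapping complex, was at 351 and 643 TPM at E90 and at 0, 0 and 159.5 TPM at P22, and fell by 6.45 ± 1.44 (adjusted p = 0.0014). SNRPE, a core protein of the spliceosome, was at 570 and 513 TPM at E90 and at 42.5, 0.831 and 122 TPM at P22, and fell by 4.66 ± 0.94 (adjusted p = 4.9e-04). On the log2 scale the P22 replicates of these genes differed more from each other than their E90 replicates did. Each of the 5 fell more in delta than in beta and alpha cells. DYDC1 was at 25.2 and 36.8 TPM at E90 and was listed at 0 in all P22 libraries (adjusted p = 7.1e-08).

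Early response and heat shock genes, which cells induce within minutes of activation or stress and which also rise when tissue is dissociated, were higher at P22. Of 29 tested, 19 were called higher and none lower, with a median of 3.33, and 13 held. EGR3, a zinc finger factor, was listed at 0 in both E90 libraries and was at 80.6, 27.2 and 377 TPM at P22 (adjusted p = 1.6e-04). JUNB, a subunit of AP-1, was at 0.143 and 5.68 TPM at E90 and at 89.7, 156 and 205 TPM at P22, and rose by 5.70 ± 1.09 (adjusted p = 3e-04). DNAJB1, a partner of the heat shock protein HSP70, was at 41.0 and 89.7 TPM at E90 and at 1642, 1058 and 972 TPM at P22, and rose by 4.27 ± 0.67 (adjusted p = 2.8e-05). The lowest P22 library of DNAJB1 was 3.42 log2 units above the highest E90 library. HSPH1, a large heat shock protein, was at 105.5 and 92.9 TPM at E90 and at 1458, 849 and 979 TPM at P22, and rose by 3.42 ± 0.49 (adjusted p = 8.2e-06). HSPA1L, an HSP70 family member, was at 1.95 and 0.382 TPM at E90 and at 71.9, 121.8 and 54.1 TPM at P22, and rose by 5.29 ± 0.71 (adjusted p = 3.1e-06).

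The early response list had smaller median differences in beta and alpha cells. The median was 0.88 in beta and -0.46 in alpha cells, and 11 of the 29 genes rose more in delta cells at an adjusted p below 0.05. The background of this test, the change in delta cells minus the mean change in beta and alpha cells, was 787 genes higher (4.41%) and 478 lower (2.68%). The sum of the list was 1879 and 2328 TPM in the E90 delta libraries, 4942 to 4959 TPM in beta and 7056 to 7447 TPM in alpha libraries of that age. At P22 it was 16666, 17906 and 12792 TPM in delta, 5780 to 7323 TPM in beta and 1782 to 13075 TPM in alpha libraries. The E90 delta libraries were thus the lowest of their age, and the P22 alpha libraries were far apart. With the Y-linked covariate 14 of the 29 were called higher, and with library weights 9. CDKN1A, the cell cycle inhibitor p21, was listed at 0 in both E90 libraries and was at 5.11, 28.7 and 7.17 TPM at P22 (adjusted p = 0.0034, or 0.17 with library weights).

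The unfolded protein response list divided. Of 31 tested, 6 were called higher and 10 lower (12.9% and 13.3% over all genes), with a median of -0.25. With the 2 unnamed genes removed it was 9 higher and 7 lower, so no direction is given for the list. HERPUD1, which helps to degrade misfolded proteins, was at 33.3 and 18.4 TPM at E90 and at 125.1, 82.7 and 197 TPM at P22, and rose by 2.31 ± 0.48 (adjusted p = 7.4e-04). CANX, the chaperone calnexin of the endoplasmic reticulum, was at 749 and 932 TPM at E90 and at 228, 382 and 246 TPM at P22, and fell by 1.59 ± 0.23 (adjusted p = 8.4e-06). ERO1B, an oxidase that forms disulfide bonds in secretory cells, was at 222 and 230.5 TPM at E90 and at 99.6, 64.7 and 62.7 TPM at P22, and fell by 1.60 ± 0.33 (adjusted p = 6.2e-04, or 0.12 with library weights).

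Interferon response and antigen presentation genes were higher at P22. Of 28 tested, 21 were called higher and none lower, with a median of 2.32, and 8 held. IFI6, an interferon-induced mitochondrial protein, was at 14.3 and 0.108 TPM at E90 and at 1814, 5923 and 1483 TPM at P22, and rose by 9.26 ± 1.22 (adjusted p = 2.7e-06). MX1, an antiviral GTPase, was at 22.4 and 34.9 TPM at E90 and at 233, 276 and 307 TPM at P22, and rose by 3.23 ± 0.42 (adjusted p = 2.7e-06). B2M, the light chain of class I antigen-presenting molecules, was at 94.5 and 130 TPM at E90 and at 451, 1056 and 821 TPM at P22, and rose by 2.71 ± 0.46 (adjusted p = 6.9e-05). In beta cells the median over the list was 2.001, and IFI6 (7.57), MX1 (3.76) and B2M (2.92) were called higher there. In alpha cells the median was 0.79, and for none of the 28 was the change in delta cells called different from the mean of beta and alpha cells. The number called higher in delta cells was 14 without E90 replicate 1, 10 without E90 replicate 2, 13 without P22 replicate 3, 9 with library weights and 9 with the E90 and P22 libraries alone, and none was called lower in any of these. Over all 3 P22 libraries the summed list was 3955, 8486 and 4646 TPM, with the highest value in P22 replicate 2, which also held the most acinar transcript.

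**Figure D4:**
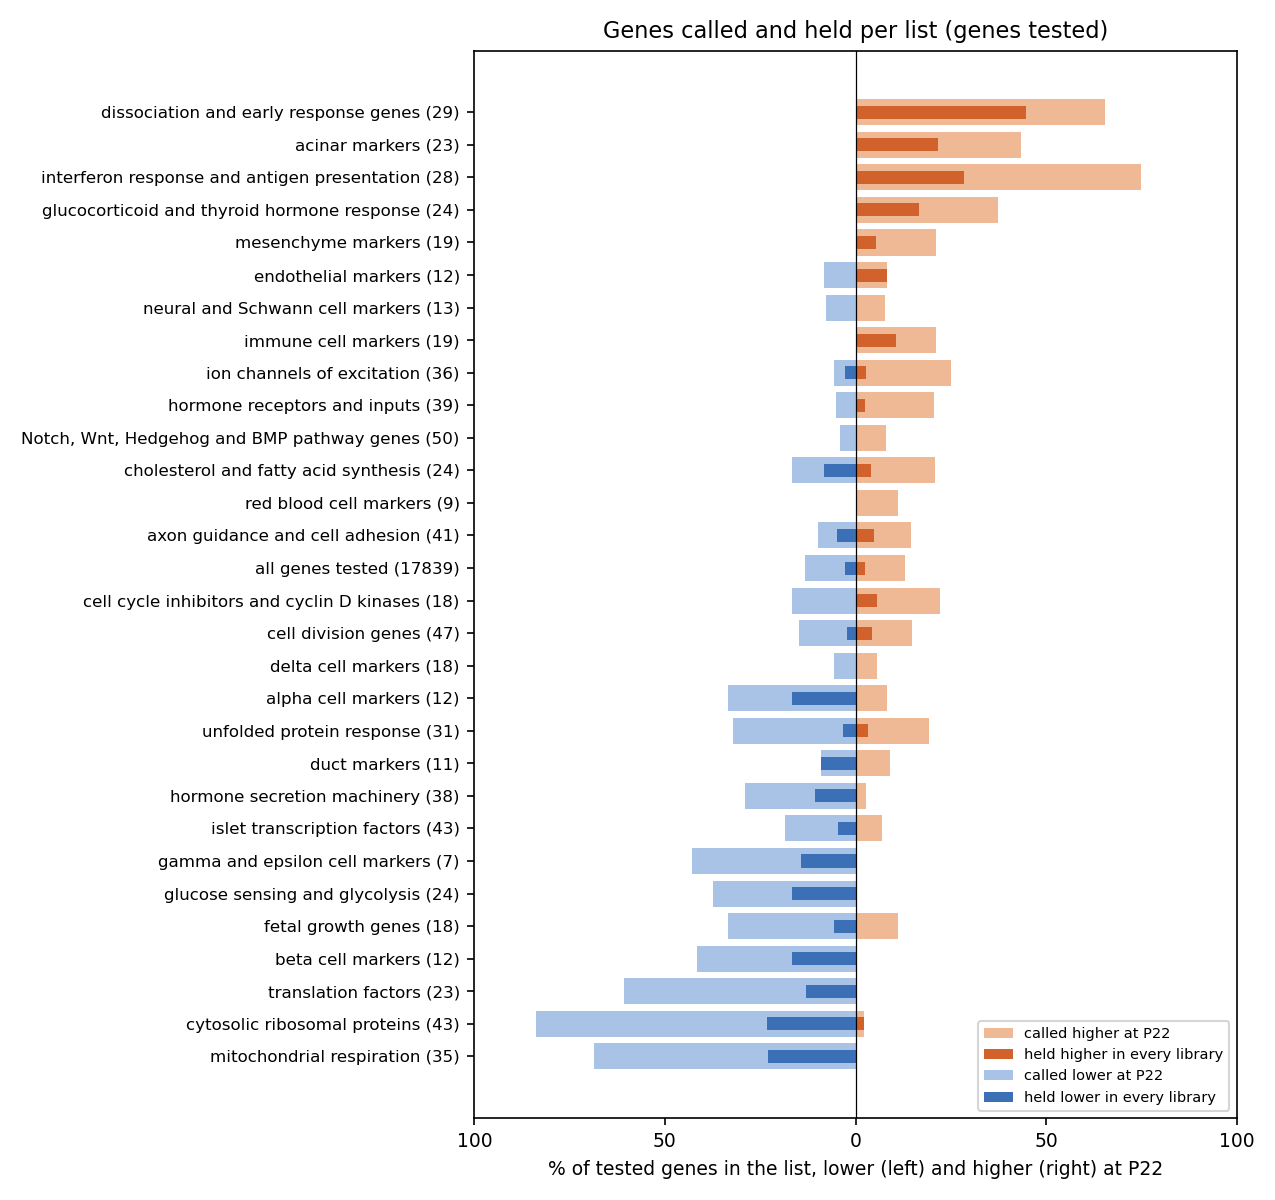
Share of the tested genes of each list (rows, number tested in brackets, sorted by the median difference) that were called (pale) and that held in every library (dark), lower at P22 to the left in blue and higher to the right in orange. All genes tested, at 12.9% higher and 13.3% lower, are the row to read the lists against, with early response, acinar and interferon genes at the top and ribosomal and mitochondrial genes at the bottom.

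Digestive enzyme transcripts were among the largest rises. Of 23 acinar markers, 10 were called higher and none lower, with a median of 3.14, and 5 held. CPB1, pancreatic carboxypeptidase B, was at 0.086 and 0 TPM at E90 and at 340, 1729 and 615 TPM at P22, and rose by 9.42 ± 1.52 (adjusted p = 3.9e-05). CTRC, a chymotrypsin that activates other enzymes, was listed at 0 in both E90 libraries and was at 110.2, 615 and 216 TPM at P22 (adjusted p = 1.6e-05). PNLIP, pancreatic lipase, was listed at 0 at E90 and was at 48.2, 423 and 80.5 TPM at P22 (adjusted p = 2.2e-05). In each gene P22 replicate 2 was the highest library and the other P22 libraries were still far above E90. Without that replicate 10 of the 23 were called higher, the same number as with it. Without E90 replicate 2 it was 7, with library weights 3, and with the level of these markers as a covariate 9 were called higher and 3 lower. In beta cells the median over the list was 5.18 and in alpha cells 2.44, and for none of the 23 was the change called different from the mean of those cells.

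A few markers of other cell types were also called, where 12.9% of all genes tested were called higher and 13.3% lower. Of 19 immune cell markers, 4 were called higher, and FCER1G and CD68 held. FCER1G, a signalling chain of Fc receptors on myeloid cells, was listed at 0 at E90 and was at 27.2, 12.9 and 4.72 TPM at P22 (adjusted p = 6.3e-04, or 0.079 with library weights). CD68, a lysosomal protein of macrophages whose symbol has 2 identifiers, was listed at 0 at E90 and was at 4.62, 8.80 and 16.6 TPM at P22 (adjusted p = 4e-04). Of 19 mesenchyme markers, 4 were called higher, and THY1 held, at 2.62 and 1.90 TPM at E90 and 18.2, 9.23 and 18.5 TPM at P22 (2.27 ± 0.44, adjusted p = 3e-04). Of 12 endothelial markers, 1 was called higher and 1 lower, and the list's sum overlapped between the ages. PLVAP, a protein of fenestrated capillaries, was at 8.43 and 5.39 TPM at E90 and at 42.0, 27.6 and 45.9 TPM at P22, and rose by 2.31 ± 0.36 (adjusted p = 2.6e-05). ESM1, a protein secreted by endothelial cells, was at 53.1 and 116 TPM at E90 and at 13.4, 26.3 and 5.30 TPM at P22. It fell by 2.56 ± 0.69 (adjusted p = 0.0069, or 0.099 with library weights), and its call was lost without E90 replicate 2. The mean of ESM1 was 469 TPM at E90 and 732 TPM at P22 in beta cells, and 2.36 and 8.03 TPM in alpha cells. Which cells the fall of ESM1 in the delta libraries came from was not tested.

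Glucocorticoid and thyroid hormone rise around birth in many mammals. Of 24 genes that respond to them, 9 were called higher (3 with library weights) and none lower, against 12.9% and 13.3% over all genes. The median was 1.09, and 4 held. PER2, a clock gene, was at 12.2 and 12.7 TPM at E90 and at 58.3, 35.4 and 56.9 TPM at P22, and rose by 1.90 ± 0.28 (adjusted p = 1e-05). It rose more than in beta and alpha cells. HR, a corepressor induced by thyroid hormone, was listed at 0 at E90 and was at 4.24, 4.09 and 2.04 TPM at P22 (adjusted p = 7.4e-05). FKBP5, a cochaperone of the glucocorticoid receptor, was at 92.5 and 138 TPM at E90 and at 298, 181.5 and 325 TPM at P22, and rose by 1.20 ± 0.27 (adjusted p = 0.0017). FKBP5 was called higher in beta cells as well (1.67, adjusted p = 6.1e-04). With both stricter filters on low values, when scaled by the median of ratios, with hormone and mitochondrial genes removed, or without E90 replicate 1 or P22 replicate 1, 1 gene of the list was called lower. The same was seen without 1 of several beta or alpha libraries at P22.

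Of 18 fetal growth genes, 6 were called lower and 2 higher (13.3% and 12.9% over all genes), with a median of -0.71. IGF2, the fetal insulin-like growth factor, was at 2319 and 1734 TPM at E90 and at 453, 913 and 266.5 TPM at P22, and fell by 2.06 ± 0.36 (adjusted p = 1.1e-04). PEG10, an imprinted gene, was at 122 and 103 TPM at E90 and at 6.36, 48.0 and 24.3 TPM at P22, and fell by 2.44 ± 0.56 (adjusted p = 0.0017, or 0.054 with library weights and 0.052 with the E90 and P22 libraries alone). Both were called lower in alpha cells too, by -2.05 for IGF2 (adjusted p = 0.012) and -3.59 for PEG10 (adjusted p = 0.0052). GRB10, an imprinted inhibitor of insulin receptor signalling, was at 12.1 and 0.28 TPM at E90 and at 77.7, 25.6 and 31.6 TPM at P22 (3.32 ± 0.68, adjusted p = 6.1e-04), and its call was lost without E90 replicate 2 (0.12). The number of fetal growth genes called lower was 3 without E90 replicate 1, 4 without E90 replicate 2, 3 with the unnamed genes removed and 1 with library weights.

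Of 24 genes of cholesterol and fatty acid synthesis, 5 were called higher and 4 lower (12.9% and 13.3% over all genes), with a median of 0.12. INSIG1, which holds back the sterol-sensing factor SREBP, was at 2.69 and 4.49 TPM at E90 and at 32.2, 66.9 and 68.8 TPM at P22, and rose by 3.58 ± 0.46 (adjusted p = 1.9e-06). It held in every library and rose more than in beta and alpha cells.

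Of 47 cell division genes, 7 were called higher and 7 lower, close to the 12.9% and 13.3% of all genes, with a median of -0.05, and with the unnamed genes removed it was 10 higher and 3 lower. AURKB, a mitotic kinase, was at 0.956 and 0 TPM at E90 and at 7.03, 18.4 and 16.6 TPM at P22, and rose by 3.32 ± 0.74 (adjusted p = 0.0013, or 0.067 with library weights). MCM6, a subunit of the replication helicase, was at 33.1 and 55.5 TPM at E90 and at 11.4, 11.1 and 12.5 TPM at P22, and fell by 1.79 ± 0.24 (adjusted p = 4.4e-06). MCM6 was called lower in beta (-0.91, adjusted p = 0.036) and in alpha cells (-1.31, adjusted p = 0.014).

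Of 41 adhesion and guidance genes, 6 were called higher and 4 lower, shares near the 12.9% and 13.3% of all genes, and 2 held in each direction. DSCAML1, a neuronal adhesion molecule, was at 7.38 and 4.47 TPM at E90 and at 42.9, 36.1 and 28.2 TPM at P22, and rose by 2.42 ± 0.35 (adjusted p = 8.2e-06). Its relative DSCAM was at 0.433 and 0.345 TPM at E90 and at 6.21, 3.50 and 9.003 TPM at P22, and rose by 2.31 ± 0.34 (adjusted p = 1.2e-05). NLGN1, a postsynaptic neuroligin, was at 13.6 and 17.1 TPM at E90 and at 1.498, 0.781 and 0 TPM at P22, and fell by 3.31 ± 0.53 (adjusted p = 3.9e-05). CNTN1, contactin 1, was at 182 and 142 TPM at E90 and at 47.1, 35.9 and 48.7 TPM at P22, and fell by 1.86 ± 0.36 (adjusted p = 3.1e-04, or 0.058 with library weights). For all 4 genes every P22 library lay on the same side of both E90 libraries by more than 1 log2 unit. In 50 tested genes of the Notch, Wnt, Hedgehog and BMP pathways, 4 were called higher and 2 lower and none held.

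The genes that held were chosen by their change in delta cells and were then read in beta and alpha cells of the same ages, which share no library with them. Of the 429 that held higher, 203 also had higher means at P22 in both beta and alpha cells, and 3 were called higher in both. Of the 495 that held lower, 429 had lower means in both and 17 were called lower in both. Over all genes tested, 19.24% had higher and 41.52% lower means in both, against 47.32% of the genes that held higher and 86.67% of those that held lower. The change in delta cells minus the mean change in beta and alpha cells contains the change by which these genes were chosen, so it is not counted over them. The median of this difference over all genes was 0.19, and 62.21% of its calls were higher. Scaling by the median of ratios moved that median to 0.03 and the calls to 46.79% higher, and quantile normalization moved them to 0.02 and 46.97%. With the Y-linked covariate the calls were 47.1% higher, and with the unnamed genes removed 71.38%. The count in each direction therefore depends on the scaling, while the genes named above as differing are given with their own values in the closing section. Y-linked genes summed to 8.57 to 10.4 TPM in beta and 12.1 to 15.3 TPM in alpha libraries at E90, far below the E90 delta libraries.

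**Figure D5:**
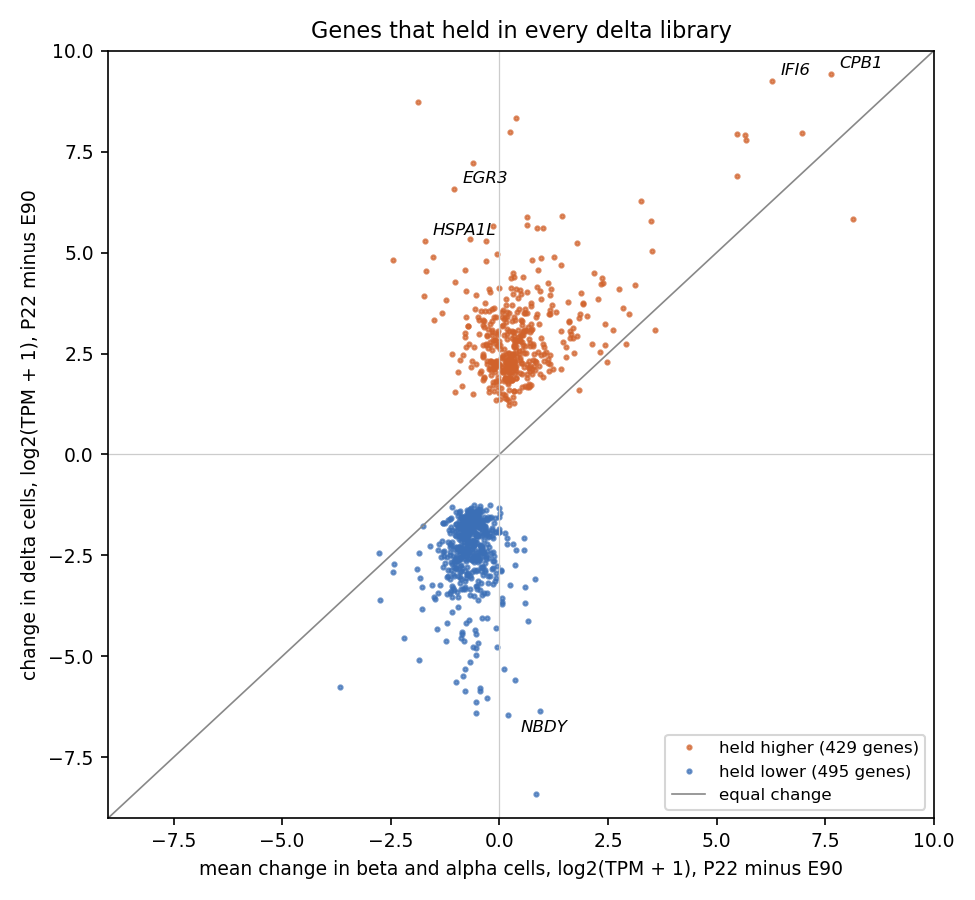
Change between E90 and P22 in delta cells (vertical) against the mean change in beta and alpha cells (horizontal), both on the log2(TPM + 1) scale, for the 429 genes that held higher (orange) and the 495 that held lower (blue), which were chosen by the vertical axis. Most points lie farther from 0 than the line of equal change, IFI6 and CPB1 lie high on both axes, and EGR3 and HSPA1L lie high on the delta axis and below 0 on the other.

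Some called genes did not hold because their groups overlapped. DGLUCY, a mitochondrial enzyme of glutamate metabolism, was at 0 and 0.166 TPM at E90 and at 102, 8.13 and 0 TPM at P22. It was called higher (3.18 ± 0.94, adjusted p = 0.012), but P22 replicate 3 was no higher than E90, and without P22 replicate 1 the adjusted p was 0.13. SMCO4 was at 231 and 375 TPM at E90 and at 0, 23.1 and 469 TPM at P22, where replicate 3 was above both E90 libraries. It was called lower (-3.72 ± 1.33, adjusted p = 0.038), and without P22 replicate 1 its difference was -1.47 (adjusted p = 0.36). RSKR was at 61.8 and 24.3 TPM at E90 and at 42.3, 0 and 0 TPM at P22 (-3.50 ± 1.18, adjusted p = 0.028). P22 replicate 1 lay between the E90 libraries, and without P22 replicate 2 the adjusted p was 0.12 and without P22 replicate 3 0.14.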

How the data were processed

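The authors deposited 1 table of TPM values, 22630 genes by 37 libraries, made from total RNA with a stranded SMARTer kit and paired reads on a NextSeq, per the labels' protocols. The submitters' processing notes name Salmon 0.11.3, and which genome build and annotation were used is not given in the sources used here. Symbols came from the table, and 168 more from an Ensembl name list. Where identifiers shared a symbol (2625 genes), the one with the highest mean TPM was used. Symbols with 1 of several identifiers are uncertain.

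Genes with at least 1 TPM in at least 2 libraries (17839) were fitted as log2(TPM + 1) with limma 3.58.1 in R 4.3.3, 1 mean for each of 12 groups of cell type and age, 25 residual degrees of freedom, eBayes with trend and Benjamini-Hochberg adjustment, called below 0.05. Errors beside differences are standard errors. A fold on this scale understates the change of low genes, and none is given against a group listed at 0. An exact permutation test of 3 against 2 libraries cannot go below 0.2 (two-sided), so list sums have no test. The procedure was tested on simulated data in which, for each gene, all groups had the same spread. That test does not cover the larger spread of the delta groups.

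Named genes were the 12 largest rises and falls that held (mean TPM of at least 10), up to 4 called genes of each of 30 lists, islet hormones, delta cell markers, islet transcription factors, the 6 largest differences each way from beta and alpha cells, and called genes with overlapping groups. Which of them are printed was decided when writing, and a few are not reported here. Members, lists and rules were chosen with earlier results of these data known. Alternatives were a pseudocount of 0.1, no filter, TPM 5 in 3 libraries, a filter over delta libraries, median-of-ratios scaling, quantile normalization, leaving out hormone and mitochondrially encoded genes, library weights (arrayWeights), fewer groups, leaving out each library, 2 covariates and removal of the unnamed genes that hold at least 5% of a delta library.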

Additional observations from a re-analysis of the deposited data

Results flagged for a closer look

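For 39 of the genes named, the change between E90 and P22 in delta cells differed from the mean change in beta and alpha cells by a test of the difference itself (limma, adjusted p below 0.05). Each value is that difference on the log2(TPM + 1) scale. Many of these genes were named for their change in delta cells, which is part of the difference, so their number says nothing about delta cells as a whole. No explanation is offered for any of them, and the E90 delta libraries held far more Y-linked transcript than the beta and alpha libraries of that age, a part that was not tested gene by gene.

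Among early response and heat shock genes the rise in delta cells was larger by 7.01 ± 0.88 for HSPA1L, 5.30 ± 0.84 for DNAJB1, 5.07 ± 1.36 for JUNB and 3.28 ± 0.61 for HSPH1. It was larger by 2.18 ± 0.60 for HERPUD1 and 1.52 ± 0.34 for PER2. Among receptors it was larger by 3.15 ± 0.73 for GALR1 and 1.78 ± 0.43 for UNC5B. GHSR, which was not called in delta cells, differed by 1.57 ± 0.44 and was called lower in beta cells (-2.11, adjusted p = 8.3e-04). The difference was 4.82 ± 0.92 for AURKB, 3.51 ± 0.57 for INSIG1, 2.89 ± 0.85 for GRB10, 2.60 ± 0.42 for DSCAM, 2.18 ± 0.43 for DSCAML1 and 2.10 ± 0.54 for THY1.

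Falls that were larger in delta cells included -6.65 ± 1.80 for NBDY, -5.74 ± 1.61 for GCG, -5.42 ± 0.63 for MTLN, -4.64 ± 1.08 for ATP6V1F, -4.52 ± 0.93 for ROMO1 and -4.17 ± 1.17 for SNRPE. In respiration and glycolysis they were -3.07 ± 0.41 for NDUFA3, -1.62 ± 0.30 for ATP5F1A, -1.54 ± 0.36 for COX8A, -1.17 ± 0.25 for CS, -2.03 ± 0.52 for PGAM1 and -1.23 ± 0.25 for GAPDH. In secretion and coupling they were -1.91 ± 0.43 for SCG2, -1.80 ± 0.49 for VAMP3, -1.47 ± 0.37 for SYT4, -1.48 ± 0.42 for GJD2 and -1.07 ± 0.30 for CPE. For the others they were -1.98 ± 0.40 for RPL37, -1.69 ± 0.37 for RPL27, -0.998 ± 0.246 for EIF3L, -1.33 ± 0.28 for CANX, -1.41 ± 0.32 for NKX2-2, -2.24 ± 0.67 for NLGN1 and -3.51 ± 0.86 for ESM1.

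DYDC1, EGR3, ADRB1, FCER1G and CD68 also had a called difference, and no size is given because each was listed at 0 throughout one of the delta groups.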

How the results depend on the processing

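Numbers are given as higher and lower. Genes called in delta cells (2304 and 2381) numbered 466 and 887 with library weights, 1 and 4 in the delta libraries alone, and 1144 and 1466 with the E90 and P22 libraries alone. Leaving out 1 delta library gave 964 to 3199 and 1689 to 2343, with the fewest genes called without E90 replicate 2 and the most higher without P22 replicate 2. Genes that held (429 and 495) numbered 54 and 161 with library weights, 0 and 0 in the delta libraries alone, and 216 and 341 with the E90 and P22 libraries alone. They numbered 275 and 349 with quantile normalization and 607 and 306 with the unnamed genes removed. Without 1 delta library, where 1 fewer library has to agree, they numbered 354 to 1552 and 546 to 1020. Of the 924, 629 were called in each of 12 alternatives other than the delta libraries alone.

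Genes whose change differed from beta and alpha cells (787 and 478) numbered 442 and 499 with quantile normalization, 128 and 101 with library weights, 171 and 91 with the E90 and P22 libraries alone, and 227 and 255 with the Y-linked covariate. Leaving out 1 library of the 3 cell types gave 282 to 1651 and 237 to 787, with both lowest numbers without delta E90 replicate 2. Without alpha E90 replicate 2 there were 476 higher and without beta E90 replicate 2 there were 500. The cause of these shifts was not tested.

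Of 85 named genes, library weights ended the call of 25, the Y-linked covariate of 6 and the acinar covariate of 4. Leaving out E90 replicate 2 ended 13 calls and E90 replicate 1 ended 8. Calls in the delta libraries alone were lost for 74. LEPR, uncalled at -0.23, turned to 0.30 with the acinar covariate, 0.025 with the unnamed genes removed, 0.42 without E90 replicate 1 and 0.06 without P22 replicate 2, and was -0.88 without E90 replicate 2. CASR, uncalled at -0.37, turned to 0.14 with quantile normalization. The 2 covariates and the removal of the unnamed genes were chosen after seeing the data. No paired analysis was possible because the labels give no numbers or animals shared between the ages. The unknown depth limits what a value near 0 can show.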
